A study of Ambystoma mexicanum with 8 samples.

Results

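The heat shock proteins and their J-domain partners were described in dividing limb cells of the axolotl. The members were chosen by name: every entry of the gene list whose last symbol, in capitals, begins with HSPA, HSPB, HSPD, HSPE, HSPH, HSP90 or DNAJ. This gave 85 names out of 60956, carrying 81 AMEX60DD identifiers and 57 symbols. No name in the list begins with HSPH, so the HSP110 family was represented by HSPA4 alone. HSPB11, HSPBP1 and HSPBAP1 met the rule by name and are not small heat shock proteins. Of the 85 names, 15 had fewer than 100 UMIs (molecular identifiers, so that copies of a molecule count once) over all cells.

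Molecular chaperones of the HSP70 family bind unfolded stretches of other proteins and release them in cycles driven by ATP. J-domain proteins, the DNAJ families A, B and C, deliver clients to HSP70 and start its ATP hydrolysis, and HSP90 takes over many clients at a later step. HSPA8 and HSP90AB1 are made at all times, whereas HSPA1B, HSP90AA1 and DNAJB1 are classic targets of heat shock factor and also rise when tissue is dissociated into cells. HSP90B1, HSPA5, DNAJB9, DNAJB11 and DNAJC3 work in the endoplasmic reticulum, and HSPA9, HSPD1 and HSPE1 in mitochondria. The roles given here are those known from mammals.

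The study is on body-wide activation of cells after limb loss in the axolotl, Ambystoma mexicanum, and on the part of adrenergic signalling in it. All 8 libraries came from wild-type limb tissue that was dissociated enzymatically for 30 min at room temperature, and live cells with a DNA content of 4 C, described as dividing, were sorted for droplet 3' RNA sequencing. Intact, with the numbers 1, 3, 4 and 5, was taken for the homeostatic limbs, and Contra, with the numbers 1, 2, 3 and 5, for the systemically activated limbs at 14 days after an amputation. The labels do not spell out Contra, and they do not say whether the libraries of a group are separate animals or what the numbers share, so p-values measure the spread between these libraries, which may be technical. No age is given in the labels.

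After cells under 500 genes were left out, 33860 of 34149 cells remained, with total counts of 13344968 to 99777499 UMIs and median counts of 4142.5 to 15398.5 UMIs per cell in a library. Cells were put in a class by marker genes, none of which is a member, and 28768 cells (85.0%) passed the gate of exactly 1 class. Connective tissue held 16862 cells, epidermis 7992, endothelium 2011, macrophages 451 and erythroid cells 1058. Mast cells or basophils (213 cells), T cells (114) and muscle fibres (67) were too few for a test. A further 4282 cells passed several gates, 25.7% of the cells of Contra 5 and 8.18 to 13.7% in the other libraries, and were left out. Intact 1, Intact 4 and Intact 5 held only 294, 518 and 296 connective tissue cells, and 135 barcodes occurred in more than 1 library. Levels are given as CPM, the counts of a name per 1000000 UMIs of a class in a library.

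A pair of members carried most chaperone messages. HSP90AB1 reached 1693 ± 221 CPM (SD, n = 8 libraries) in all cells, and the HSPA8 entry AMEX60DD053480 reached 1266 ± 469 CPM. Together they held 56.6% of all member UMIs. HSP90AB1 stood at 2121, 1692, 1571 and 1391 CPM in Intact 1, 3, 4 and 5 and at 1743, 1721, 1804 and 1502 CPM in Contra 1, 2, 3 and 5. The groups overlapped, and Intact 1 was the highest library. AMEX60DD053480 stood at 2341, 1022, 1166 and 1507 CPM in Intact and at 1071, 1085, 910 and 1024 CPM in Contra, with Intact 1 again highest. Intact 1 held 54.2% epidermal cells, and Intact 4 and Intact 5, which were lower in both, held 57.3 and 58.9%. Levels in all cells weigh each cell by its UMIs, however. Epidermal cells held 11858739 of 20476815 UMIs in Intact 1, 11400065 of 26356361 in Intact 4 and 6529217 of 13344968 in Intact 5. The largest of these shares was that of Intact 1, and the part of the class mix was not tested. Within epidermis Intact 1 was also the highest library, at 2402 CPM of HSP90AB1 and 3156 CPM of AMEX60DD053480. DNAJA1 (AMEX60DD044130), a class A partner of HSP70, followed at 323 ± 59.9 CPM. The inducible HSP90AA1 (AMEX60DD011358) reached only 24.6 ± 8.36 CPM, and HSPA5 (BiP, the HSP70 of the endoplasmic reticulum) had 400 UMIs in all cells. Mitochondrial HSPD1 stood at 150 ± 80.1 CPM, while its partner HSPE1 had 247 UMIs. Whether the 3' ends of these low entries are annotated in full was not tested. Among the J proteins, DNAJB6 (81.4 ± 7.74 CPM), DNAJB12 (65.3 ± 12.01), DNAJC21 (59.7 ± 12.3), DNAJC8 (59.6 ± 3.28) and DNAJC2 (54.8 ± 11.3) formed a middle range in all cells, in which the ranges of neighbours overlapped.

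Levels of the members differed between classes. In 1 edgeR fit over the sums of 5 classes, with the library as a block, 57 members were tested in each class against the mean of the other classes. In epidermis 40 members passed an adjusted p of 0.05 (27 higher, 13 lower), against 69.5% of all 22060 genes tested. Connective tissue had 36 (15 higher), against 61.7% of genes, and endothelium 33 (8 higher), against 48.8%. Macrophages had 21 (8 higher), against 47.1%, and erythroid cells 31 (16 higher), against 46.9%. In epidermis and connective tissue the members were called at shares near those of all genes. The share of the members lay above that of all genes in endothelium and erythroid cells and below it in macrophages. No test of these shares was made, so these counts alone are no result about chaperones. In each direction, all genes were called higher in 35.8% and lower in 33.8% of cases in epidermis, 32.9 and 28.8% in connective tissue, 23.6 and 25.2% in endothelium, 21.6 and 25.4% in macrophages, and 17.7 and 29.2% in erythroid cells. The median log2 difference of the members was 0.24 in epidermis, where that of all genes was -0.06, and -0.28 in endothelium, where that of all genes was -0.02.

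The scaling of the counts set part of these directions. Scaling by library totals in place of TMM moved the median log2 difference of all genes by -1.85 in erythroid cells, by 0.74 in endothelium, by 0.49 in macrophages, by 0.38 in connective tissue and by 0.25 in epidermis. The share of called genes that were higher went from 37.7% to 2.25% in erythroid cells, from 48.3% to 90.8% in endothelium, from 46.0% to 78.8% in macrophages, from 53.4% to 78.1% in connective tissue and from 51.5% to 65.9% in epidermis. Size factors of DESeq2 moved the median by -0.15 in epidermis and by at most 0.05 elsewhere. Members called in the same direction under all 3 scalings numbered 25 higher and 11 lower in epidermis, 15 and 10 in connective tissue, 8 and 4 in endothelium, 8 and 3 in macrophages, and 0 and 15 in erythroid cells. The same count was not made for all genes, so these numbers alone are no result about chaperones. Differences between classes named below held under all 3 scalings unless a sentence says otherwise.

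Several members of the endoplasmic reticulum and the mitochondrion had their highest mean in epidermis. Exceptions included DNAJC1, of the reticulum, highest in connective tissue at 58.2 CPM, and the mitochondrial DNAJC30, highest in macrophages at 21.8 CPM. HSPA9 AMEX60DD030435 and DNAJC14 were also highest in macrophages (56.8 and 27.8 CPM), DNAJC28 in connective tissue (8.83) and DNAJC19 in endothelium (0.866). DNAJC3 (AMEX60DD048619), a J protein of the reticulum that also restrains the kinase PERK, averaged 110 ± 18.8 CPM in epidermis (lowest 78.0, highest 141). In connective tissue it averaged 19.8 ± 6.52 CPM, and the highest library had 29.6 CPM. Its log2 difference in epidermis from the other classes was 3.51 ± 0.11 (SE; edgeR adjusted p = 3.99e-31). A second DNAJC3 entry, AMEX60DD012548, was also higher in epidermis (1.80 ± 0.08, edgeR adjusted p = 1.60e-23). HSP90B1 (GRP94, the HSP90 of the reticulum) is listed under 2 identifiers, and both were highest in epidermis. AMEX60DD018744 stood at 181 ± 26.6 CPM in epidermis and 50.9 ± 4.70 in connective tissue (log2 difference from the other classes 2.68 ± 0.08, edgeR adjusted p = 1.13e-31), and AMEX60DD008374 at 336 ± 62.1 and 96.5 ± 13.2 CPM. DNAJB11, which works with BiP, stood at 209 ± 42.4 CPM in epidermis and 39.1 ± 4.22 in connective tissue. DNAJB9, another J protein of the reticulum, had 55.9 ± 15.9 CPM in epidermis and 14.7 ± 5.73 in connective tissue.

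The mitochondrial chaperonin HSPD1 followed the same order. It reached 336 ± 56.0 CPM in epidermis (251 to 437), 100 ± 24.8 in macrophages, 56.0 ± 6.77 in endothelium and 54.6 ± 7.59 in connective tissue, where the last pair did not differ beyond their spread. HSPA9, the mitochondrial HSP70, is listed under 2 identifiers, which had different orders. AMEX60DD026047 was highest in epidermis at 125 ± 14.8 CPM and stood at 25.4 ± 3.02 CPM in connective tissue (log2 difference of connective tissue from the other classes -1.08 ± 0.15, edgeR adjusted p = 1.11e-08). AMEX60DD030435 was highest in macrophages at 56.8 ± 14.4 CPM, with 40.1 ± 6.58 in connective tissue and 26.1 ± 6.44 in epidermis. DNAJC5 (cysteine string protein of secretory vesicles; entry DNAJC5G-DNAJC5) stood at 79.9 ± 4.82 CPM in epidermis, 23.0 ± 7.31 in endothelium and 11.6 ± 1.72 in connective tissue. HSPA4, of the HSP110 family of nucleotide exchange factors, stood at 69.1 ± 7.95 CPM in epidermis and 33.3 ± 2.97 in connective tissue.

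Several other lists of protein folding genes held more names called higher than lower in epidermis. Of 30 names on a list for folding in the endoplasmic reticulum and the unfolded protein response, 25 were called higher and 1 lower, with a median log2 difference of 1.24. Of 34 co-chaperone names outside the members, 24 were higher and 3 lower, with a median of 0.80. For the cytosolic chaperonin TRiC with prefoldin, which fold actin and tubulin, 8 of 16 names were higher and 0 lower, with a median of 0.27. The median of all genes was -0.06, and 35.8% of them were called higher and 33.8% lower. Not every list went this way. Of 14 names of other heat or proteotoxic stress genes, 4 were higher and 5 lower, with a median of -0.15. Of 6 names of heat shock factor regulation, 2 were higher and 2 lower, with a median of -0.007. Counts in these lists rest on TMM.

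Connective tissue and endothelium shared members that stood low in epidermis. HSPA12B, an atypical HSP70 enriched in mammalian endothelium, reached 230 ± 26.2 CPM in endothelium (193 to 260.5) and 93.5 ± 16.2 in connective tissue (76.6 to 127). It stood at 6.28 ± 3.59 CPM in macrophages, 3.94 ± 1.20 in epidermis and 1.40 ± 0.68 in erythroid cells. The ranges of endothelium and connective tissue did not overlap, and both lay far above the other classes. The log2 difference from the other classes was 4.16 ± 0.10 in endothelium (edgeR adjusted p = 1.28e-34) and 2.90 ± 0.10 in connective tissue (adjusted p = 1.89e-28). DNAJB5, a class B J protein, had 41.4 ± 13.02 CPM in connective tissue, 26.7 ± 3.70 in endothelium and 2.69 ± 0.74 in epidermis. DNAJA1 entry AMEX60DD016852 was highest in endothelium at 138 ± 16.4 CPM and lowest in epidermis at 22.0 ± 6.32, whereas the abundant entry AMEX60DD044130 was highest in connective tissue at 396 ± 32.9 CPM. DNAJC21, a J protein of ribosome assembly, stood at 75.7 ± 7.83 CPM in connective tissue and 70.7 ± 9.62 in macrophages, a pair that did not differ beyond its spread. In endothelium, HSPD1 (log2 difference -1.29 ± 0.14, adjusted p = 1.79e-10) and DNAJC4 (-1.12 ± 0.09, adjusted p = 2.73e-14) were the lowest named members against the other classes in the same edgeR fit.

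Of the 5 fitted classes, macrophages had the highest mean level of the most abundant HSPA8 entry. AMEX60DD053480 averaged 2866 ± 294 CPM there (2488 to 3271), 1963 ± 555 in epidermis, 1230 ± 149 in endothelium, 816 ± 81.9 in connective tissue and 288 ± 59.6 in erythroid cells. The log2 difference of macrophages was 1.18 ± 0.14 (edgeR adjusted p = 4.28e-10). Another HSPA8 entry, AMEX60DD017913, had a different order, with its highest mean in connective tissue at 161.7 CPM and its lowest in erythroid cells at 47.1 CPM. HSP90AB1 averaged 2433 ± 226 CPM in macrophages, the highest of the fitted classes, but was not called (log2 difference 0.19, edgeR adjusted p = 0.299). Pooled over libraries, the 114 T cells stood at 3190 CPM of AMEX60DD053480 (exact Poisson interval 3107 to 3275) and 2779 CPM of HSP90AB1 (2702 to 2859). The muscle fibres, pooled the same way, stood at 1796 and 2728 CPM. These intervals cover counting error only and no spread between libraries. The T cell level of AMEX60DD053480 lay within the macrophage range of 2488 to 3271 CPM over libraries, and T cells were not tested against macrophages. DNAJC13, a J protein of endosomes (entry AAES-44789-DNAJC13), was called higher in macrophages (0.86 ± 0.16, edgeR adjusted p = 1.55e-05) at 23.4 ± 7.29 CPM, against 8.37 ± 1.73 in epidermis. In endothelium it averaged 25.4 ± 17.0 CPM, where Intact 5, with 65 cells, stood at 65.8 CPM and the other libraries between 9.19 and 24.1 CPM.

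Erythroid cells had the lowest mean CPM of 63 of the 70 members with at least 100 UMIs. The same count was not made for all genes. Under library totals the median log2 difference in erythroid cells was -2.06 for all genes and -1.86 for the members. Under TMM 16 members were called higher and 15 lower, so the count alone is no result about chaperones. HSP90B1 AMEX60DD018744 stood at 2.87 ± 0.72 CPM (log2 difference -2.74 ± 0.15, edgeR adjusted p = 1.74e-20). Under TMM the largest positive differences were those of DNAJA1 AMEX60DD013282 (1.72 ± 0.19), DNAJC25 (1.26 ± 0.16) and DNAJA1 AMEX60DD044130 (1.075 ± 0.12), and each turned negative under library totals (-0.18, -0.66 and -0.91). Their CPM were 10.8 ± 1.57, 19.1 ± 3.03 and 164.5 ± 13.5, none above the mean in connective tissue.

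**Figure D1:**
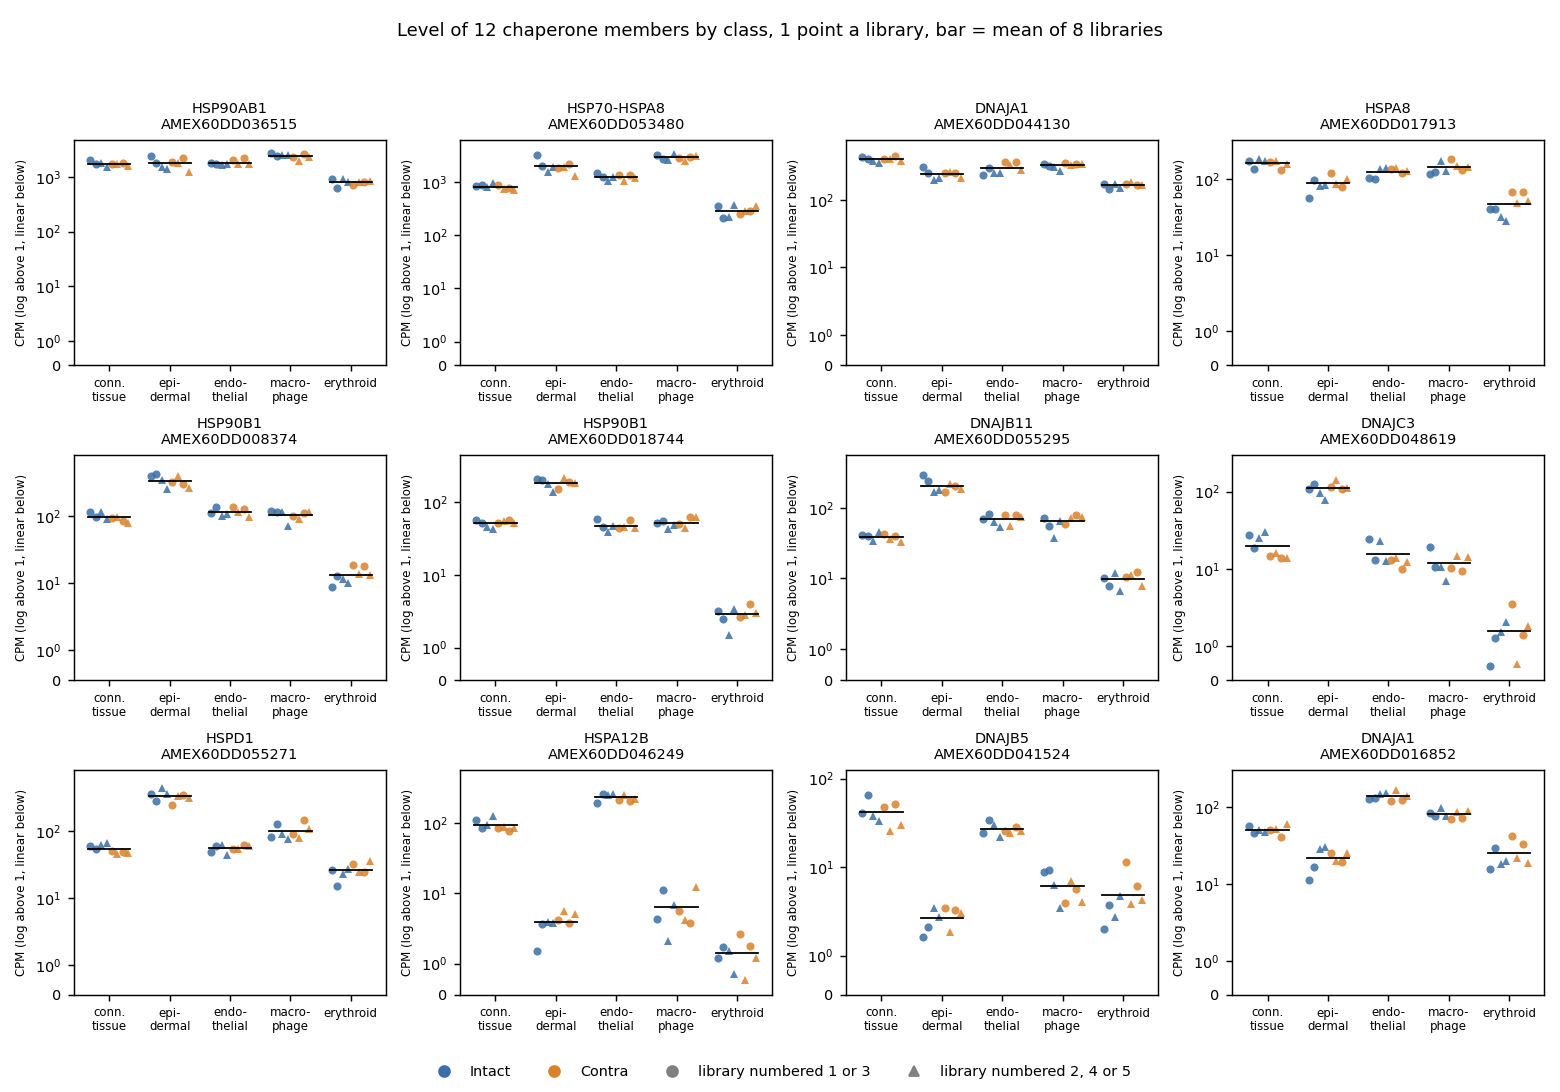
Level of 12 members in 5 classes, in CPM on an axis that is logarithmic above 1. Each point is a library, blue for Intact and orange for Contra, and the bar is the mean of 8 libraries. DNAJC3, both HSP90B1 entries, DNAJB11 and HSPD1 peak in epidermis, HSPA12B in endothelium (193 to 260.5 CPM), and HSPA8 AMEX60DD053480 in macrophages, among the 5 classes plotted.

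The small heat shock proteins HSPB1, HSPB7 and HSPB8 stood highest in muscle fibres. These chaperones hold unfolding proteins without ATP, and HSPB7 and HSPB8 are known from the contractile apparatus of mammalian muscle. HSPB1 (AMEX60DD054443) reached 1996 CPM in the 67 muscle fibre cells of all libraries pooled (868 UMIs; exact Poisson interval 1866 to 2134, counting error only). In the other 7 classes it stood between 0.0871 and 1.54 CPM. It was seen in every library that held such cells, at 1768 CPM in Intact 1, 1881 in Intact 3, 1983 in Intact 4, 3777 in Contra 2, 1970 in Contra 3 and 1983 in Contra 5, from 2 to 31 cells each. Intact 5 and Contra 1 held no muscle fibre cell. At least 1 HSPB1 UMI was found in 79.1% of the muscle fibre cells (exact Clopper-Pearson interval 67.4 to 88.1), at a median of 3916 UMIs per cell. In connective tissue cells, at a median of 12710 UMIs, the share was 1.64%. With each cell thinned to 2000 UMIs the shares were 72.4% of 58 cells and 0.284% of 15857 cells.

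HSPB7 and HSPB8 had the same order. HSPB7 (AMEX60DD052354) stood at 449 CPM in muscle fibres (388 to 516) and HSPB8 at 143 CPM (109 to 183), all libraries pooled. By library HSPB7 ran from 177 CPM in Intact 1 to 881 in Intact 4. HSPB8 ran from 55.1 CPM in Intact 4 to 884 in Intact 1, with 1 UMI in Intact 4, 1 in Contra 2 and 5 in Intact 1. The pooled intervals do not cover this spread between libraries. In connective tissue HSPB7 and HSPB8 stood at 8.07 and 2.99 CPM, and in each of the other classes at 1.03 CPM or less. HSPB7 was called higher in connective tissue than in the other fitted classes (log2 difference 4.12 ± 0.22, edgeR adjusted p = 2.00e-21), a comparison without the muscle fibres. The muscle fibre cells were gated on contractile genes, cells from all libraries were pooled, and no test was made.

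**Figure D2:**
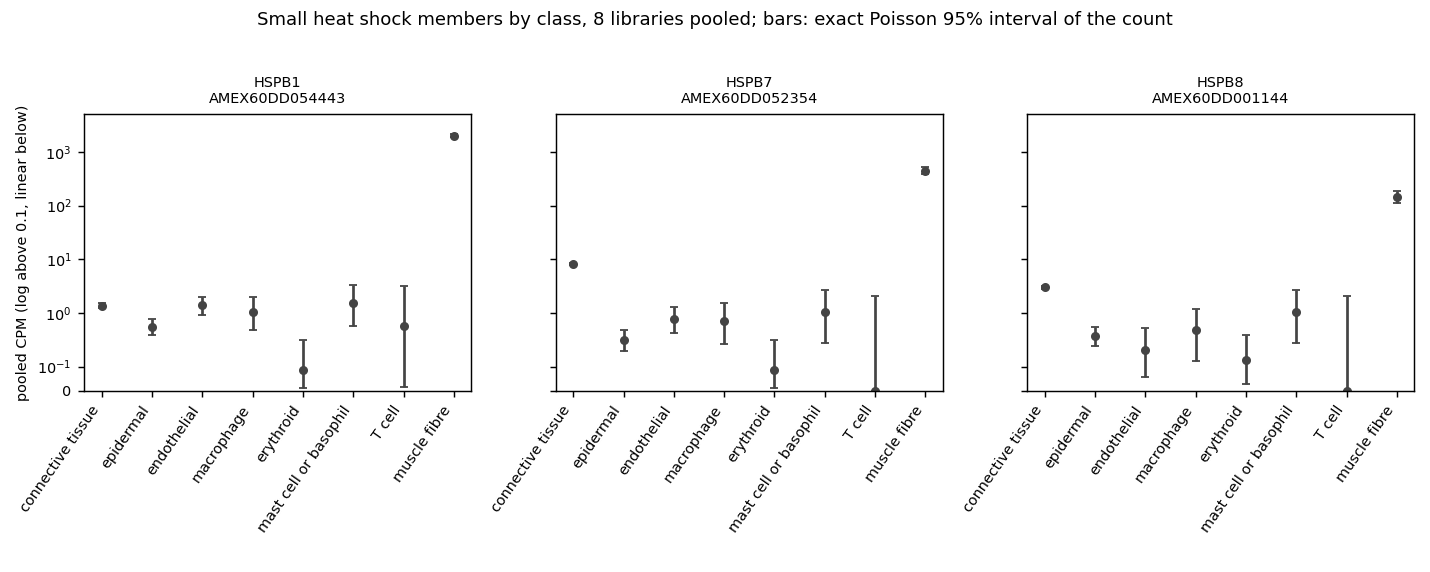
Pooled level of HSPB1, HSPB7 and HSPB8 in 8 classes, in CPM on an axis that is logarithmic above 0.1, with exact Poisson intervals at 95% as bars. Muscle fibres stand at 1996, 449 and 143 CPM, far above every other class, and connective tissue is second for HSPB7 (8.07) and HSPB8 (2.99).

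The HSP70 identifier that carries the name HSPA1B did not follow Intact and Contra. AMEX60DD010754 is listed under 3 names (HSPA1B, HSPA8 and HSP70-HSPA8), whose counts were summed here. Over all cells these names held 4735, 3557 and 2421 UMIs. Whether the identifier is stress-inducible was not tested. In connective tissue it stood at 63.6, 30.4, 14.0 and 10.0 CPM in Intact 1, 3, 4 and 5 and at 11.9, 64.1, 8.36 and 12.8 CPM in Contra 1, 2, 3 and 5. Intact 1 and Contra 2 stood apart from the rest, with Intact 3 next, and both groups spanned low and high libraries. In endothelium it stood at 88.8, 110, 10.9 and 0 CPM in Intact and at 63.7, 83.4, 27.1 and 13.5 CPM in Contra. In macrophages it stood at 72.8, 86.1, 6.31 and 6.90 CPM in Intact and at 67.6, 64.6, 43.3 and 4.08 CPM in Contra. Intact 1, Intact 3, Contra 1 and Contra 2 were thus the highest 4 libraries in both of these classes, although Contra 1 was low in connective tissue, and Intact 4, Intact 5 and Contra 5 were the lowest 3. In epidermis the order was 48.9, 36.8, 5.79 and 3.83 CPM in Intact and 15.2, 25.7, 21.9 and 10.98 CPM in Contra. Erythroid cells had 0.40 to 11.05 CPM in the libraries with a UMI other than Contra 5, and Contra 2 had 0 of 115 cells with a UMI, which allows up to 2.61% of cells with a UMI (3 cells of 115).

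These molecules were concentrated in few cells, less so in the connective tissue libraries with the highest levels. The 1% of cells with the most UMIs of the identifier held 40.3% of them in connective tissue and 53.6% in epidermis. By library in connective tissue, this share was 16.9% in Intact 1 and 19.0% in Contra 2, and 39.6 to 74.5% in the other libraries. In connective tissue at least 1 UMI was found in 22.8% of the cells of Intact 1 and 23.2% of those of Contra 2 (exact intervals 18.1 to 28.0 and 21.7 to 24.7), against 3.26 to 12.8% in the other libraries. Thinned to 2000 UMIs per cell, the shares were 9.42 and 8.33% against 0.858 to 3.59%, and the same pair of libraries was highest. In Contra 2 the share was 21.6% in endothelium, at a median of 7105 UMIs per cell, and 0% in erythroid cells, at a median of 16135. The cause of this difference was not tested. A single erythroid cell of Contra 5 held 138 of 186 UMIs, and without it that library fell from 55.8 to 14.8 CPM. A single macrophage of Contra 3 held 63 of 69 UMIs, and without it that library fell from 43.3 to 3.82 CPM.

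Pooled over libraries, T cells had the highest level of the identifier. It reached 364 CPM over the 114 T cells, against 57.5 CPM in macrophages pooled the same way. At least 1 UMI was found in 43.0% of T cells (33.8 to 52.6) and, thinned to 2000 UMIs, in 27.2%, against 18.6% and 6.74% of macrophages. By library the T cell level ran from 102 CPM in Intact 4 to 1096 CPM in Contra 1, from 5 to 26 cells each. Without the top cell of each library it ran from 47.9 to 681 CPM. In Intact 1 it was then 58.4 CPM, against 60.8 CPM in macrophages and 60.05 CPM in connective tissue treated the same way. In the other libraries T cells stayed above both of these classes. No UMI was found in the 67 muscle fibre cells, at a median of 3916 UMIs per cell, which allows up to 4.48% of cells with a UMI (3 cells of 67) and sets no limit on cells that express the gene.

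**Figure D3:**
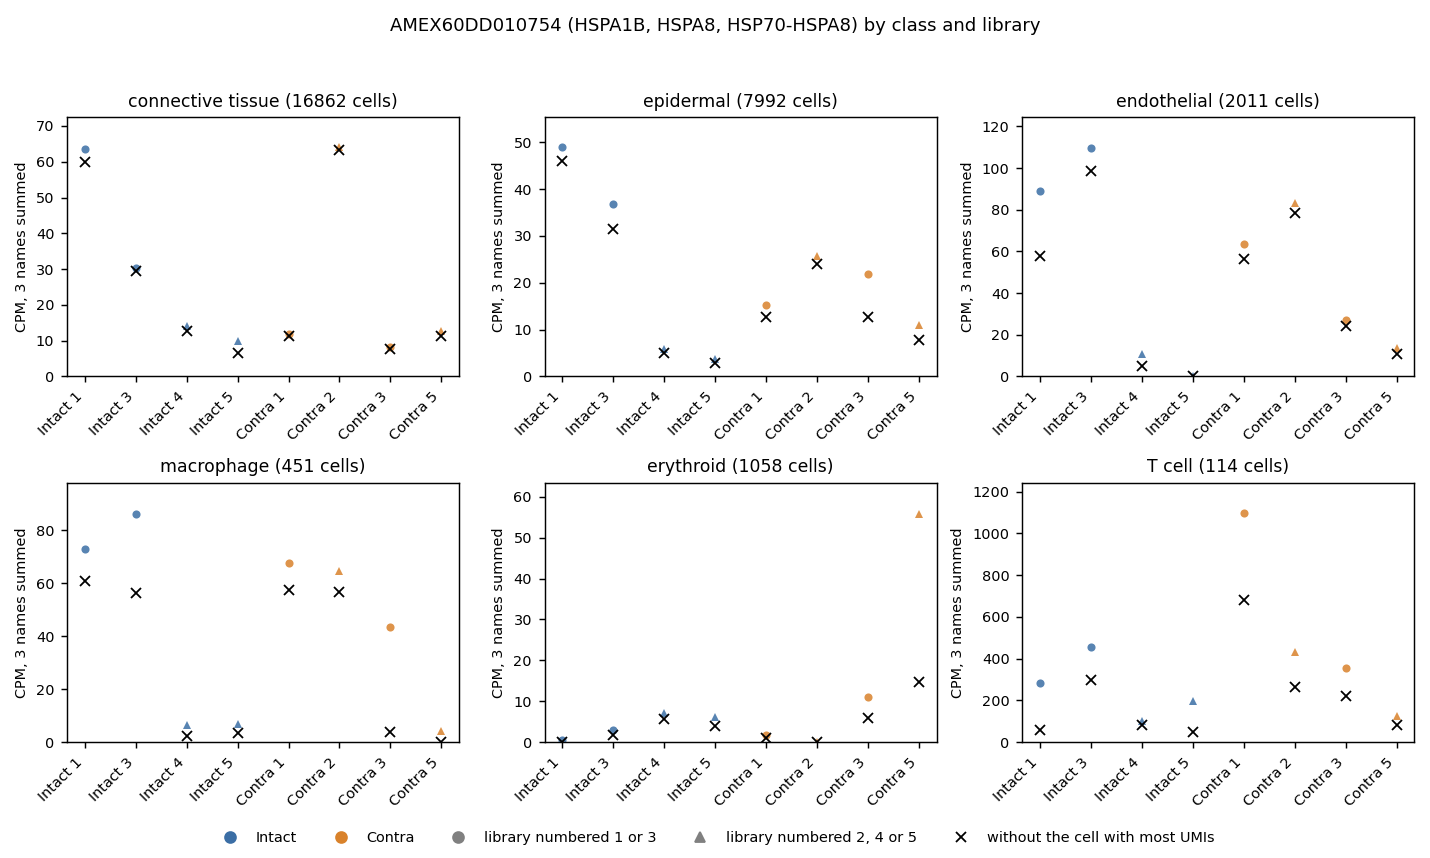
Level of AMEX60DD010754 in 6 classes and 8 libraries, in CPM, with the 3 names summed. Crosses give the level without the cell that held most of its UMIs. Connective tissue is high in Intact 1 and Contra 2. T cells run from 102 to 1096 CPM, and from 47.9 to 681 CPM without the top cell of each library. Erythroid Contra 5 drops from 55.8 to 14.8 CPM.

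Whether chaperones differed between systemically activated and homeostatic limbs was asked within each class, with libraries as replicates. No member passed an adjusted p of 0.05 in any of the 5 classes by edgeR's quasi-likelihood test. The number tested was 69 in connective tissue, 56 in epidermis, 51 in endothelium, 44 in macrophages and 37 in erythroid cells, and among all genes tested 0.0% were called in each class. At an unadjusted p under 0.05 there were 5 members in connective tissue, 1 in epidermis, 5 in endothelium, 0 in macrophages and 0 in erythroid cells, against 7.61, 4.39, 6.06, 5.82 and 4.08% of all genes. DESeq2 called 1 member in connective tissue and 0 in the other classes. Over all genes it called 47 in connective tissue, 16 in epidermis, 34 in endothelium, 4 in macrophages and 3 in erythroid cells. The median log2 fold change of the members was -0.03, -0.15, 0.06, 0.06 and -0.08 in that order, and that of all genes lay between -0.03 and 0.01. Under library totals the members' medians were -0.18, 0.0008, -0.02, 0.03 and 0.36, and those of all genes -0.12, 0.08, -0.09, -0.03 and 0.44.

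The smallest p-values in connective tissue were those of DNAJC3 and DNAJB9, followed by an HSPA8 entry. DNAJC3 (AMEX60DD048619) stood at 27.1, 18.8, 25.3 and 29.6 CPM in Intact and at 14.5, 16.1, 13.7 and 13.6 CPM in Contra. The groups did not overlap, and every Contra library lay below every Intact library. The log2 fold change was -0.61 ± 0.12 (edgeR adjusted p = 0.643), and it was the member that DESeq2 called (adjusted p = 0.0352). DNAJB9 stood at 16.3, 13.6, 23.2 and 23.3 CPM in Intact and at 10.8, 10.5, 11.2 and 8.84 CPM in Contra, again without overlap (log2 fold change -0.68 ± 0.16, edgeR adjusted p = 0.643). A minor HSPA8 entry, AMEX60DD002074, stood at 6.85, 5.79, 7.92 and 7.30 CPM in Intact and at 4.86, 5.30, 4.00 and 3.89 CPM in Contra (log2 fold change -0.45 ± 0.14, edgeR adjusted p = 0.650). In all, 8 of 69 members lay lower in every Contra library than in any Intact library and 1 lay higher, against 3.61 and 1.37% of all genes. Beside those named, the lower members were the mitochondrial HSPD1 and DNAJA3, the ribosome-associated DNAJC2, HSPA4 and DNAJB4, and the higher one was HSPB11, a protein of cilia. HSPD1 stood at 61.0, 54.1, 61.8 and 66.6 CPM in Intact and at 49.97, 46.0, 49.3 and 48.1 CPM in Contra. DNAJC2 stood at 52.9, 44.5, 60.5 and 52.0 CPM in Intact and at 41.5, 33.6, 37.6 and 32.9 CPM in Contra. None of them passed the adjusted test by edgeR, and the count rests on CPM: under TMM the log2 fold change was -0.06 ± 0.09 for HSPA4, -0.16 ± 0.16 for DNAJB4 and -0.15 ± 0.09 for DNAJA3. Other members of the reticulum had log2 fold changes of 0.25 (HSP90B1 AMEX60DD018744), -0.11 (HSP90B1 AMEX60DD008374), 0.08 (DNAJB11), 0.02 (DNAJC3 AMEX60DD012548), -0.03 (DNAJC1) and -0.85 ± 0.40 (HSPA5). The median log2 fold change of 32 names of the reticulum and folding list was 0.04.

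The same count was made in the other classes. In epidermis 2 were higher and 0 lower in every Contra library (DNAJA3 and DNAJC21), against 1.96 and 0.406% of genes. In endothelium 1 was higher and 2 lower (HSPA9 AMEX60DD026047; HSPA12A and HSPBAP1), against 1.42 and 2.47% of genes. In macrophages there were 0 and 0, against 1.56 and 1.6%, and in erythroid cells 4 higher and 0 lower, against 4.32 and 0.15% of genes.

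In epidermis DNAJC3 averaged 102 ± 20.5 CPM in Intact and 118 ± 15.4 in Contra, and DNAJB9 50.3 ± 22.1 and 61.4 ± 4.75 CPM, with overlap in both. The log2 fold change of Contra in connective tissue minus that in epidermis was -0.71 ± 0.22 for DNAJC3 and -0.93 ± 0.31 for DNAJB9 (edgeR interaction test, adjusted p = 0.338 and 0.371), so a difference between the classes was not shown. By that edgeR test 0 of 67 members passed, against 0.0279% of 28698 genes, and 10 reached an unadjusted p under 0.05, against 9.72% of genes. DESeq2 and library totals were not run for the interactions. The smallest p in epidermis was that of HSPA12B, at 1.52, 3.68, 3.86 and 3.83 CPM in Intact and 4.23, 5.64, 3.76 and 5.02 CPM in Contra (log2 fold change 0.52 ± 0.23, edgeR adjusted p = 0.993). DNAJC14 and DNAJC17 came next at the same adjusted p.

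In endothelium DNAJC25 stood at 18.4, 14.1, 16.6 and 15.7 CPM in Intact and at 28.3, 17.4, 32.9 and 33.7 CPM in Contra. The groups overlapped through Contra 2 (log2 fold change 0.94 ± 0.26, edgeR adjusted p = 0.694). With no filter on low counts edgeR called DNAJC25 (log2 fold change 1.015, adjusted p = 0.0133), among 216 genes called. DNAJA1 (AMEX60DD044130) stood at 233, 289, 249 and 251 CPM in Intact and at 360, 325, 358 and 273 CPM in Contra (0.44 ± 0.14, edgeR adjusted p = 0.802). HSPBAP1, which binds a small heat shock protein, stood at 27.6, 26.4, 23.2 and 43.9 CPM in Intact and at 15.9, 14.8, 19.6 and 19.7 CPM in Contra, without overlap (-0.58 ± 0.22, edgeR adjusted p = 0.818). In macrophages HSP90AA1 (AMEX60DD011358) averaged 22.3 ± 14.2 CPM in Intact and 44.9 ± 14.4 in Contra (edgeR adjusted p = 0.852), HSPA9 AMEX60DD030435 64.5 ± 12.7 and 48.9 ± 12.7 CPM, and DNAJC13 19.8 ± 7.67 and 27.0 ± 5.48 CPM. In erythroid cells HSP90AB1 averaged 820 ± 133 CPM in Intact and 797 ± 59.5 in Contra with a log2 fold change under TMM of -0.51 ± 0.30 (edgeR adjusted p = 0.980). DNAJB1 (-0.67 ± 0.43) and DNAJC25 (-0.43 ± 0.29) came next by p, and DNAJC25 turned to 0.01 under library totals.

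**Figure D4:**
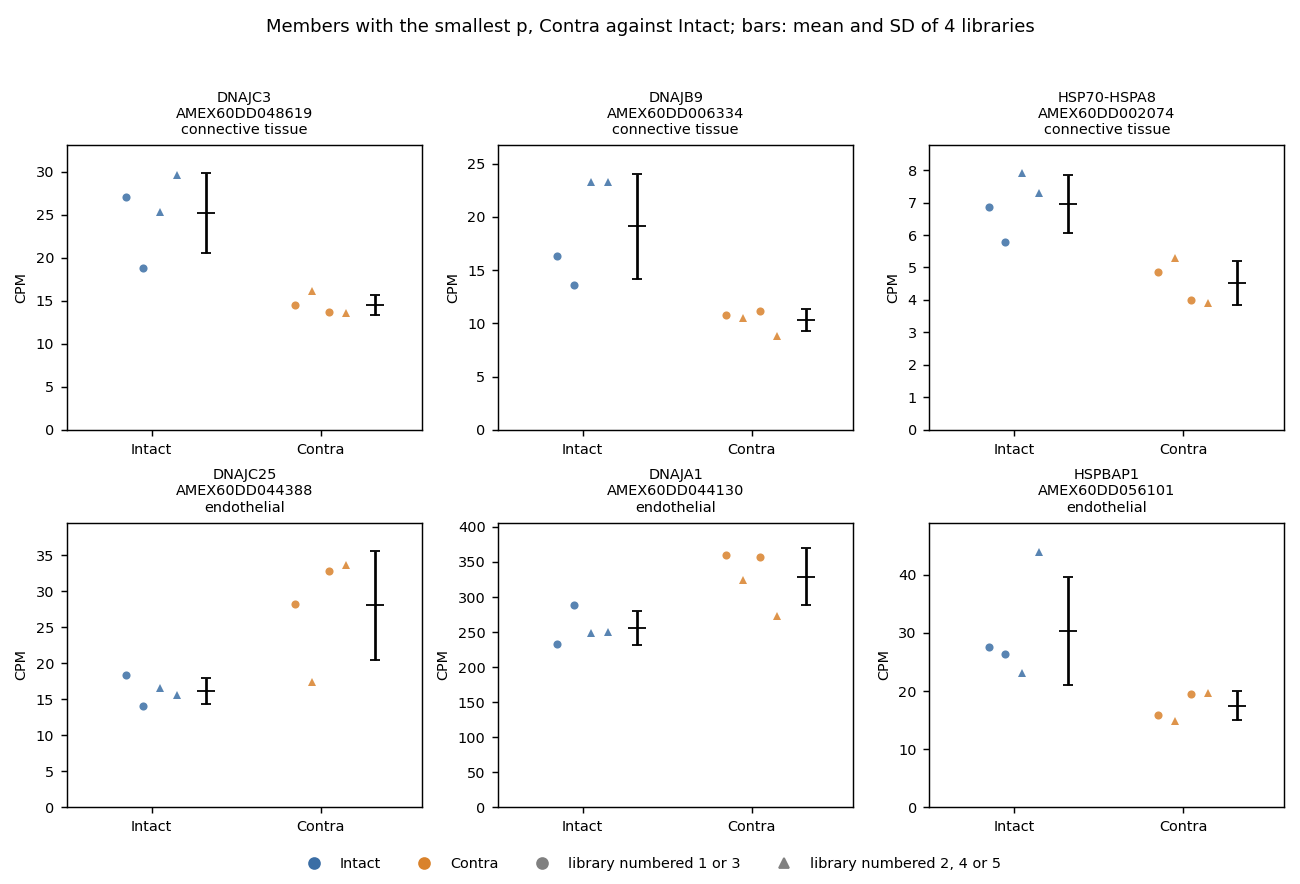
Level of the 3 members with the smallest p for Contra against Intact in connective tissue (upper row) and in endothelium (lower row), in CPM. Points are libraries, round for numbers 1 and 3, and the bars give mean and SD of 4 libraries. DNAJC3, DNAJB9 and HSPA8 AMEX60DD002074 lie lower in every Contra library. No member shown passed edgeR's adjusted test in the fit with the low-count filter and without a block. DESeq2 called DNAJC3 in connective tissue, and edgeR with no filter called DNAJC25 in endothelium (adjusted p = 0.0133).

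Libraries numbered 1 and 3 were compared with those numbered 2, 4 and 5, with the group as a term and 4 libraries on each side. This split was found in earlier results of these same data, so p-values across it are not independent evidence of a difference. In connective tissue 1 of 69 members passed an adjusted p of 0.05, against 1.5% of all genes. In epidermis 0 of 57 passed (0.052% of genes), in endothelium 0 of 51 (2.02%), in macrophages 0 of 44 (0.00924%) and in erythroid cells 0 of 40 (0.0% of genes). DESeq2 called 5 members in connective tissue, 3 in epidermis and 3 in endothelium. Abundant members were among them, all higher in numbers 1 and 3. These were HSP90AB1 in epidermis and endothelium (DESeq2 adjusted p = 0.0341 and 0.0398) and AMEX60DD053480 in connective tissue and endothelium (0.0123 and 0.0134). DNAJA1 AMEX60DD044130 was called in connective tissue (0.0377). Over all genes DESeq2 called 1090, 769 and 472 in these classes, more than edgeR did (502, 11 and 305). At an unadjusted p under 0.05, 14 members were higher and 1 lower in connective tissue, 17 and 1 in epidermis, 10 and 1 in endothelium, 5 and 0 in macrophages, and 1 and 8 in erythroid cells. All genes reached that p in 12.5, 16.5, 15.3, 12.3 and 11.6% of cases. Members that lay higher in every library numbered 1 or 3 than in any other library, and members that lay lower, numbered 2 and 3 in connective tissue (1.45 and 7.38% of genes), 3 and 3 in epidermis (2.0 and 13.6%), 2 and 2 in endothelium (2.27 and 5.78%), 4 and 0 in macrophages (1.93 and 4.39%), and 0 and 0 in erythroid cells (4.4 and 0.298%). The median log2 fold change of the members was 0.13, 0.33, 0.22, 0.18 and -0.25 in the same order, and that of all genes lay between -0.02 and 0.03. These directions depend on the scaling. Under library totals the members' medians were -0.03, 0.04, 0.12, 0.09 and 0.19, and those of all genes -0.18, -0.28, -0.11, -0.10 and 0.52. At an unadjusted p under 0.05 there were then 2 higher and 4 lower in connective tissue, 8 and 4 in epidermis, 6 and 2 in endothelium, 4 and 1 in macrophages, and 7 and 1 in erythroid cells. The share of all genes at that p under library totals is not given here, so these counts alone are no result about chaperones.

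The member that passed was DNAJB5. In connective tissue it stood at 40.8, 65.2, 48.1 and 51.3 CPM in Intact 1, Intact 3, Contra 1 and Contra 3, and at 37.7, 32.8, 25.6 and 29.5 CPM in Intact 4, Intact 5, Contra 2 and Contra 5. The sides did not overlap (log2 fold change 0.92 ± 0.15, edgeR adjusted p = 0.0110). Without Intact 3 the log2 fold change was 0.79 and the adjusted p 0.0613, and without Contra 3 they were 0.83 and 0.0655, so each of these libraries was needed for the call.

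DNAJB1, the main inducible J protein of the cytosol, had a positive log2 fold change in every fitted class but the erythroid cells (-0.36 ± 0.42, and 0.09 under library totals). By edgeR it passed in none of the 5 classes. DESeq2 called it in epidermis (adjusted p = 0.00556), and edgeR with no filter on low counts called it in connective tissue, epidermis, endothelium and macrophages. With no filter, 2145, 1897, 775 and 588 genes were called in those classes. In epidermis it stood at 70.6, 82.4, 62.9 and 75.7 CPM in Intact 1, Intact 3, Contra 1 and Contra 3 and at 33.0, 38.9, 60.9 and 48.2 CPM in Intact 4, Intact 5, Contra 2 and Contra 5, without overlap (0.99 ± 0.22, edgeR adjusted p = 0.104). In macrophages the values were 99.1, 56.6, 71.0 and 61.5 against 35.7, 34.5, 55.5 and 26.5 CPM (0.88 ± 0.25, edgeR adjusted p = 0.179). In endothelium DNAJB1 averaged 48.3 ± 14.9 against 26.0 ± 15.6 CPM (0.90 ± 0.25, edgeR adjusted p = 0.0885), and HSP90AA1 37.5 ± 4.57 against 21.7 ± 9.10 CPM (0.82 ± 0.23, edgeR adjusted p = 0.0884). HSP90B1 AMEX60DD008374 had the smallest p in endothelium, at 130 ± 11.96 against 105 ± 7.66 CPM (0.43 ± 0.11, edgeR adjusted p = 0.0609), and DESeq2 called it (adjusted p = 0.0169). In connective tissue DNAJC8 (60.9 ± 3.72 against 54.1 ± 2.54 CPM) and DNAJB11 (41.1 ± 1.16 against 37.1 ± 5.46 CPM) came next by p, at adjusted p of 0.0915 and 0.0925 by edgeR, and DESeq2 called both (0.0271 and 0.00833). In epidermis DNAJB9 (0.79 ± 0.23; called by DESeq2, adjusted p = 0.0465) and DNAJC25 (0.69 ± 0.21) followed DNAJB1.

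In erythroid cells the 3 smallest p-values belonged to negative fold changes. The HSPA1B entry of AMEX60DD010754 stood at 0.40, 2.00, 0.878 and 6.32 CPM for numbers 1 and 3 and at 5.42, 4.70, 0 and 24.3 CPM for the others (log2 fold change -2.12 ± 0.68, edgeR adjusted p = 0.338), where a single cell held most UMIs of the identifier in Contra 5. HSP90AA1 (-0.85 ± 0.31) and DNAJC5 (-0.92 ± 0.37) came next by p. Under library totals the 3 values were -1.61, -0.36 and -0.42.

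The effect of the number on HSPA1B was also compared between connective tissue and epidermis. In connective tissue it stood at 32.6, 14.4, 5.44 and 3.83 CPM for numbers 1 and 3 and at 6.57, 5.02, 27.6 and 5.81 CPM for the others. In epidermis it stood at 18.2, 13.4, 7.88 and 8.46 CPM against 2.98, 1.22, 11.3 and 3.15 CPM. The sides overlapped in both classes, in epidermis through Contra 2 alone. The log2 effect in connective tissue minus that in epidermis was -1.59 ± 0.25 (edgeR interaction test, adjusted p = 0.0399), the 1 member called of 67, against 0.0453% of genes. The call was lost when any library other than Intact 1 was left out (adjusted p 0.0709 to 0.301).

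Genes of the immediate early response, which follow stimulation within a short time, were also compared between the number sets. Because the split came from earlier results of these data, the calls are no independent support for it. In connective tissue 17 of 27 names on that list were called higher in numbers 1 and 3 and 0 lower, with a median log2 fold change of 1.23, led by FOSL1 (2.03 ± 0.24, edgeR adjusted p = 0.00412), ATF3 and JUNB. In endothelium 8 of 22 names were called higher and in epidermis 4 of 25, with 0 lower in either. In macrophages 0 of 23 and in erythroid cells 0 of 10 were called by edgeR, 15 and 4 at an unadjusted p under 0.05, with medians of 0.87 and 0.86, and DESeq2 was not run for the lists. The summed list was highest in Intact 3 (6746 CPM), Contra 3 (5539) and Contra 1 (5042) in connective tissue, where the HSP70 identifier stood at 30.4, 8.36 and 11.9 CPM. It was 3105 and 2519 CPM in Intact 1 and Contra 2, the libraries highest in that identifier. Their part in the chaperone values was not tested.

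Among the other lists, 3 of 32 names of the reticulum and folding list were called in connective tissue, DDIT3 (1.22 ± 0.14, edgeR adjusted p = 0.00412), ATF4 (0.54 ± 0.11) and XBP1 (0.44 ± 0.09), which are transcription factors of the unfolded protein response, all higher in numbers 1 and 3. The prefoldin subunits PFDN2 and PFDN1 were the 2 called of 17 names of the chaperonin list (0.53 ± 0.09 and 0.51 ± 0.10). GADD45B was the 1 called of 15 other stress genes. The smallest adjusted p among 35 co-chaperone names was 0.0861, for PPID, and among 8 names of heat shock factor regulation it was 0.0812, for HSBP1, by edgeR.

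**Figure D5:**
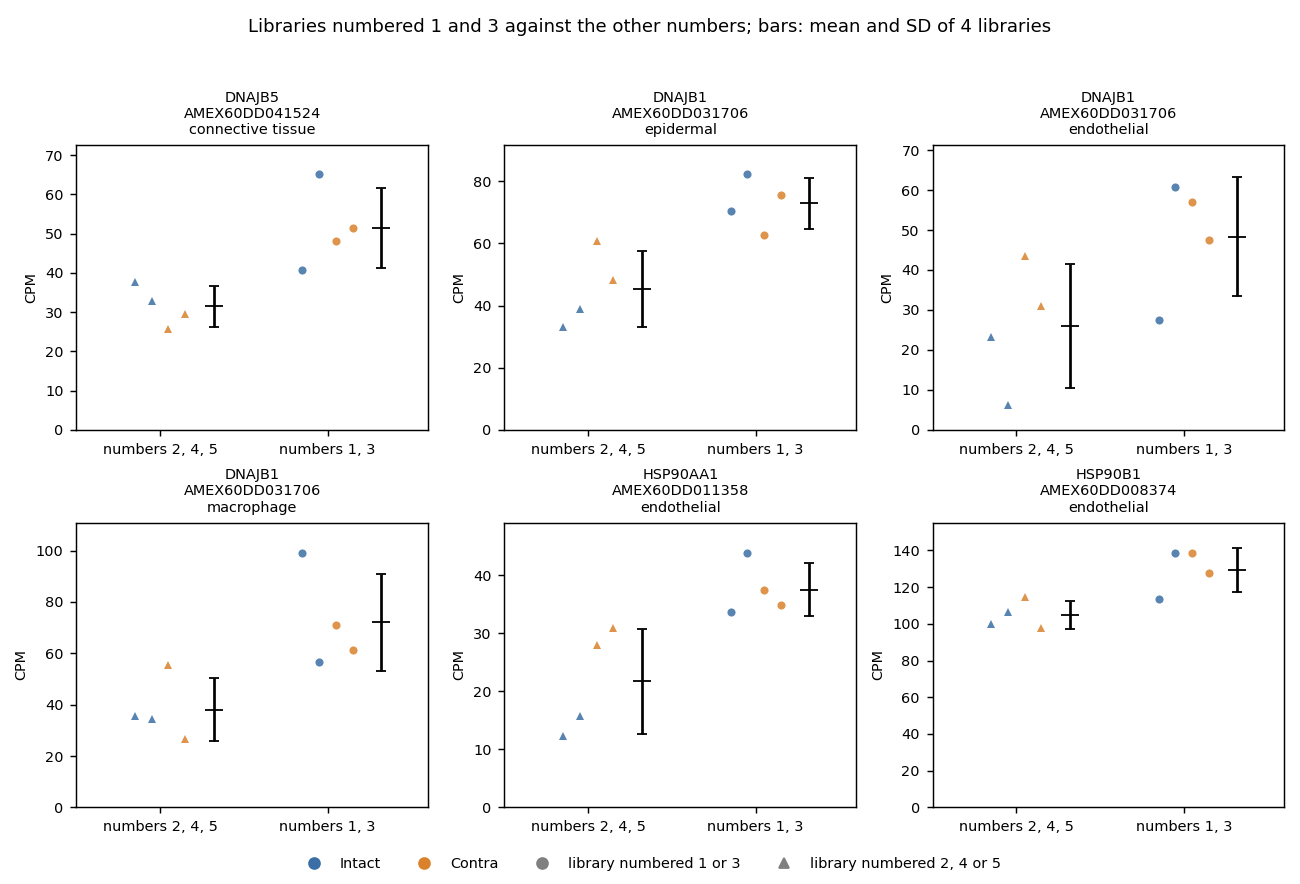
Level of DNAJB5 in connective tissue, of DNAJB1 in epidermis, endothelium and macrophages, and of HSP90AA1 and HSP90B1 in endothelium, in CPM, for libraries numbered 2, 4 or 5 and for those numbered 1 or 3. Points are libraries, blue for Intact and orange for Contra, and bars give mean and SD of 4 libraries. DNAJB5 passed edgeR's adjusted test (0.0110) and the other 5 panels did not in the fit with the low-count filter. DESeq2 also called DNAJB1 in epidermis and HSP90B1 in endothelium. With no filter on low counts, edgeR called DNAJB1 in all its panels and HSP90AA1 in endothelium.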

How the data were processed

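The deposited counts are raw whole numbers of UMIs for each cell, left unnormalized by the authors. The submitters' processing notes name kallisto 0.48.0 and Seurat 4.2.0 without role or order. The genome build, the annotation, the use of strand and the cell filter are not given in the sources used here, so overlapping and near-identical genes may share reads and no coordinates are given. Libraries were taken from the cell barcodes and groups from the titles. Cells had to hold at least 500 genes. A class needed a minimum of marker UMIs per 10000 and of distinct markers (50 and 4 for connective tissue, epidermis, erythroid cells and muscle fibres, 15 and 4 for endothelium and macrophages, 10 and 3 for mast cells, 5 and 3 for T cells), set after the distributions were seen, and 2485 cells lay within a factor of 1.5 of the epidermal threshold. Cells in several classes were left out, and no doublet caller was run.

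Counts were summed per library and class (at least 20 cells) and tested with edgeR 4.0.16 (R 4.3.3; filterByExpr, TMM, quasi-likelihood) and Benjamini-Hochberg adjustment over all genes tested. Lists of other genes are described by counts and medians, with no set test. Intervals are at 95% and cover counting error only. The procedure was tested on simulated connective tissue counts, in fits with the group and the number set as terms. The Contra fit with the group as its only term was not simulated. Members, lists and the split by library number were chosen with earlier results of these data known. Named by rule were the 15 members highest in all cells, the 2 highest per role, members past an adjusted p of 0.05 (otherwise the 3 smallest p) per class, and the extremes between classes with a mean of at least 10 CPM over the classes. DNAJC8 and DNAJB11 in connective tissue, HSPA5, HSPB8, the members named for groups that do not overlap, the second DNAJC3 entry, and the sum over AMEX60DD010754 were added after their values were seen.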

Additional observations from a re-analysis of the deposited data

Results flagged for a closer look

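In groups of 4 libraries, a library was marked when its gap to the nearest of the others took up nearly the group's whole range (Dixon's test at 95%), which chance gives in about 1 of 20 groups. Over 142 groups looked at, 6 libraries were marked. Among Intact libraries these were DNAJC17 in epidermis (14.8 CPM in Intact 1), the DNAJC5G-DNAJC5 entry in connective tissue (15.7 CPM in Intact 1), HSPA12B in endothelium (193 CPM in Intact 1) and in epidermis (1.52 CPM in Intact 1), and HSPD1 in all cells (74.1 CPM in Intact 3). Among Contra libraries it was HSP90AB1 in erythroid cells (708 CPM in Contra 1). For HSPD1, highest in epidermis, Intact 3 held 5.17% epidermal cells, against 54.2, 57.3 and 58.9% in Intact 1, 4 and 5. Within epidermis HSPD1 and HSPE1 summed stood at 286 CPM in Intact 3, inside the range of 252 to 439 CPM over the libraries. The part of the class mix was not tested.

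The effect of the library number on HSPA1B (AMEX60DD010754) differed between connective tissue and epidermis by -1.59 on the log2 scale (edgeR interaction test, adjusted p = 0.0399). Leaving out any library other than Intact 1 lost this call (adjusted p 0.0709 to 0.301). The names HSP70-HSPA8 and HSPA8 of the same identifier were not called by that edgeR test (adjusted p = 0.0989 and 0.226).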

How the results depend on the processing

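Leaving out each library in turn gave 0 to 0 members called for Contra against Intact in all 5 classes and in the interaction. For numbers 1 and 3 against the others it gave 0 to 5 in connective tissue (5 without Contra 1), 0 to 7 in epidermis, 0 to 5 in endothelium and 0 to 2 in macrophages (each highest without Contra 2), 0 to 7 in erythroid cells (7 without Intact 1) and 0 to 2 in the interaction (2 without Intact 1). Between classes it gave 31 to 37 in connective tissue, 37 to 41 in epidermis, 31 to 35 in endothelium, 16 to 24 in macrophages and 28 to 34 in erythroid cells. Counts over all genes in these fits are not given here, so the member counts alone are no result about chaperones.

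For Contra against Intact, DESeq2 called 1 member in connective tissue. With no filter on low counts edgeR called 1 in endothelium (DNAJC25), 2 in erythroid cells (names of AMEX60DD010754) and 1 in the interaction. For the numbers, DESeq2 called 5 in connective tissue, 3 in endothelium and 3 in epidermis. With no filter the numbers gave 9 in connective tissue, 5 in endothelium, 12 in epidermis, 3 in erythroid cells, 4 in macrophages and 3 in the interaction, and without the cells of highest UMI count 2 in endothelium. Library totals gave 56 called between classes in erythroid cells and 40 in macrophages. The cause of these changes was not tested. Library totals also reversed DNAJC25 in erythroid Contra (0.0124) and, between classes, DNAJA1 AMEX60DD013282 (-0.18), DNAJC25 (-0.66) and DNAJA1 AMEX60DD044130 (-0.91) in erythroid cells.

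Counts over all genes moved as well. For Contra against Intact, 0 genes were called by edgeR in connective tissue, epidermis, endothelium, macrophages and erythroid cells, against 47, 16, 34, 4 and 3 by DESeq2 and, with no filter, 0, 37, 216, 207 and 41. For the numbers, 502, 11, 305, 1 and 0 genes were called by edgeR, against 1090, 769, 472, 185 and 16 by DESeq2 and, with no filter, 2145, 1897, 775, 588 and 92. Without the cells of highest UMI count the numbers gave 464 genes in endothelium. Library totals gave 202 in epidermis and 8 in macrophages. Between classes they gave 16394 in endothelium (10774 under TMM), 11423 in macrophages (10386 under TMM) and 21112 in erythroid cells (10347 under TMM). The interactions went from 8 to 490 (Contra) and from 13 to 217 (numbers) with no filter.

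The labels do not say that equal numbers pair libraries, and same-numbered libraries did not deviate together in every pair (correlations in connective tissue -0.03, 0.29 and 0.10 for numbers 1, 3 and 5). With the replicate number as a block, 4 members were called in connective tissue (DNAJC3 and the 3 names of AMEX60DD010754, lower in Contra), 4 in endothelium (DNAJA1 AMEX60DD044130 and DNAJC25 higher, 2 names of AMEX60DD010754 lower) and 0 in the other classes, out of 567 and 365 genes called in the first pair of classes, where there were 0 and 0 without the block. Because the numbers 2 and 4 occur once each, Contra 2 and Intact 4 do not enter the comparison under this block. It rests on the libraries numbered 1, 3 and 5. In connective tissue Contra 2 had 64.1 CPM of AMEX60DD010754, against 8.36 to 12.8 CPM in the other Contra libraries. The lower level of AMEX60DD010754 in Contra under the block thus leaves out its highest Contra library. Summing the names of one identifier, chosen after seeing the data, left 0 genes called for Contra against Intact. Macrophage sums of 26 to 90 cells per library limit what could be detected there.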
